A study of Gallus gallus with 12 samples.

Results

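To follow the hen liver from high egg production into broodiness, the livers of the peak laying period (PL, day 220) were compared with those of the broodiness period (BP, day 400). The series holds 12 livers of female Luhua chickens, a Chinese indigenous breed, and the comparison used 6 of them, named PL1 to PL3 and BP1 to BP3. Each liver came from a different hen. The study names no engineered allele and no agent other than the pentobarbital sodium injected into the vein to euthanize the birds. A piece of whole liver from each hen was sequenced in its own strand-specific library after removal of ribosomal RNA. The other 6 livers, from the juvenile period (JP, day 60, 3 hens) and the sexual maturity period (SM, day 133, 3 hens), entered only where stated. PL and BP hens differed in age as well as in laying state, and the effects of age and of broodiness cannot be told apart. In pieces of whole liver, fewer cells of a type and less RNA per cell cannot be told apart either.

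The liver of a laying hen makes the precursors of egg yolk. Under estrogen from the ovary, hepatocytes synthesize vitellogenins, apolipoproteins of yolk-targeted very low density lipoprotein and vitamin-binding proteins, together with large amounts of lipid, and release them into the blood, from which growing follicles take them up. Broodiness is the state of incubation behavior in which prolactin is high, the ovary regresses and laying stops. Long non-coding RNAs (lncRNAs) are transcripts longer than a short RNA with little coding potential, and they are usually less abundant than messenger RNAs (mRNAs).

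Levels are given as deposited, in FPKM (sequenced fragments of a transcript, scaled by its length and by the size of the library), and differences as BP minus PL on the log2(FPKM + 1) scale, which understates changes of low transcripts. A transcript was tested when 3 or more of the 6 livers exceeded 0.1 FPKM, which kept 15602 of 18260 mRNAs and 4241 of 16930 lncRNAs. A transcript was called when its adjusted p from limma was under 0.05 and its change was at least 1.5-fold. The mRNAs are listed by transcript identifier, the tables used here do not pair these with gene symbols (0 of 18260 matched), and therefore the liver label was not checked against marker genes and lists of yolk, lipid and immune genes were not analysed here.

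The libraries differed in bulk measures before any transcript was tested. The summed FPKM of mRNAs was 408300, 436100 and 478990 in PL1, PL2 and PL3 and 741760, 752530 and 772040 in BP1, BP2 and BP3, so that the stages did not overlap (BP over PL 1.71, p = 0.1 by a two-sided exact permutation test, which cannot give a smaller p with 3 livers a side). The sum of lncRNAs was 2.26 times as high at BP (p = 0.1, exact permutation test). Fewer mRNAs were listed at 0 in the BP livers (1111 to 1401) than in the PL livers (1732 to 2123). The libraries of BP and SM also share a lower mapped ratio than those of PL and JP, and since each such set of libraries holds whole stages, library set and stage cannot be told apart in PL versus BP.

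Most transcripts that changed were higher in the broody livers. Of the 15602 mRNAs tested, 2758 were called (17.7%), of which 2420 were higher at BP (15.5% of those tested) and 338 were lower (2.17%). The called rises had a median of 1.07 (quartiles 0.84 and 1.45), and 1384 of them were at least 2-fold, 256 at least 4-fold and 29 at least 16-fold. The called falls had a median of -1.08, and 195 were at least 2-fold, 43 at least 4-fold and 5 at least 16-fold. All 3 BP livers lay above all 3 PL livers for 2418 of the 2420 called higher, and below them for all 338 called lower. Over all mRNAs tested, the livers did not overlap and BP was higher for 5062 (32.4%), and they did not overlap and BP was lower for 1060 (6.79%). The calls were made on the same values, so nothing is read from the lack of overlap among called mRNAs. The median difference of all mRNAs tested was 0.21, so that the typical mRNA was also listed somewhat higher at BP.

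For lncRNAs the balance was tilted further when all 6 livers were used, with 93.3% of calls being rises against 87.7% for mRNAs. This held without any 1 BP liver, but not without PL3 (78.6% against 88.2%) or PL2 (80.3% against 89%). Without PL1 the shares were 84.9% and 84.6%. Of 4241 lncRNAs tested, 374 were called (8.82%), 349 higher at BP (8.23%) and 25 lower (0.589%). Their median changes were 0.94 and -1.02 on the log2(FPKM + 1) scale, and the median of all lncRNAs tested was 0.17. These sizes cannot be set against those of mRNAs, because the scale understates changes of low transcripts. With 0.1 in place of 1 added to FPKM, the median of all tested was 0.62 for lncRNAs and 0.38 for mRNAs. For all 374 the livers of the stages did not overlap, beside 1522 higher (35.9%) and 188 lower (4.43%) among all lncRNAs tested. As for the mRNAs, the calls use the same values and nothing is read from this. Calls were fewer among low transcripts. No transcript of either kind with a mean under 0.25 on the log2(FPKM + 1) scale could be called. Values start at 0, so the difference of such a transcript stays below the 1.5-fold threshold. For means between 1 and 2 the called share was 26.9% of 413 lncRNAs and 19.2% of 2858 mRNAs.

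**Figure D1:**
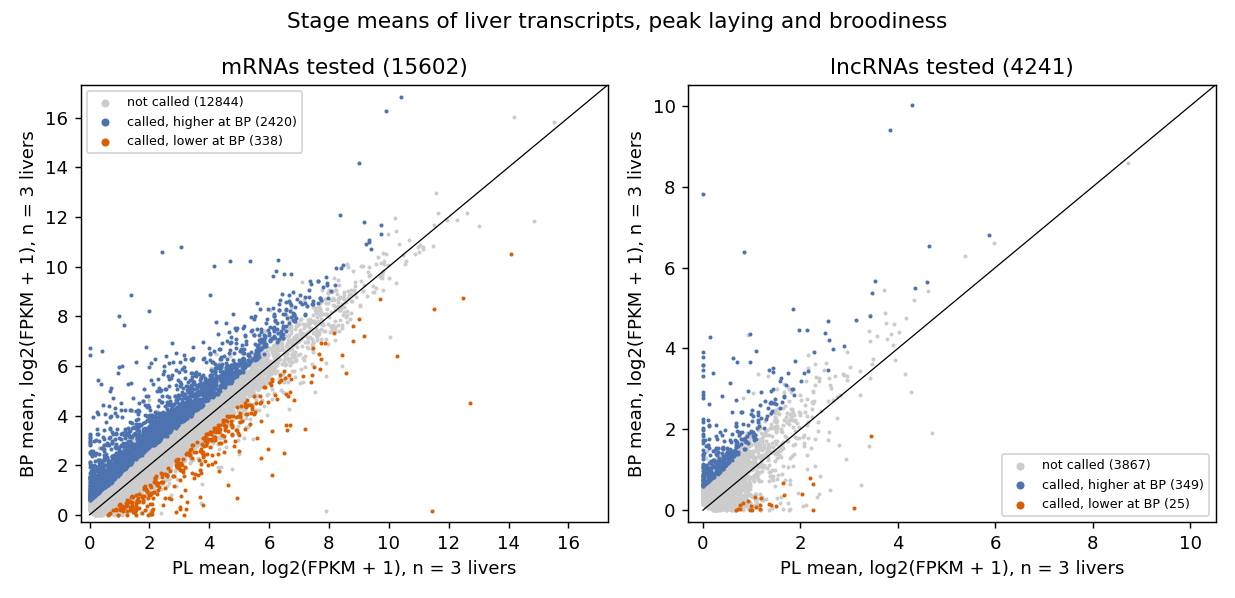
Mean log2(FPKM + 1) of the 3 PL livers (x axis) and the 3 BP livers (y axis) for each mRNA tested (left) and each lncRNA tested (right), with the diagonal of equal means. Blue points are the transcripts called higher at BP (2420 mRNAs and 349 lncRNAs), orange points those called lower (338 and 25), and a few abundant mRNAs stand far from the diagonal on both sides.

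The excess of rises among mRNAs depended on how the livers were scaled. In a second scaling, the FPKM of a liver were divided by the median of its ratios to the geometric means over the 6 livers (factors of 0.757 to 1.08 at PL and 1.05 to 1.19 at BP), and the median mRNA difference moved from 0.21 to 0.04. The number of mRNAs called was then 2556, of which 1628 were higher and 928 lower at BP, so that 63.7% of calls were rises in place of 87.7%. All 1628 were among the 2420 called as deposited, which is 67.3% of these. Of the 338 called lower as deposited, 323 were called lower after scaling, 95.6% of the 338 and 34.8% of the 928. No mRNA or lncRNA was called in opposite directions. For lncRNAs the scaled calls were 210 higher and 24 lower, and 22 of the 25 lower calls remained. The share of rises among lncRNA calls moved less, from 93.3% as deposited to 89.7% after scaling.

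The mRNA with the largest rise, ENSGALT00000042470, was nearly absent from the laying livers and among the most abundant mRNAs of the broody livers. It was 3.68, 8.95 and 12.2 FPKM in PL1, PL2 and PL3 and 31576, 30891 and 36977 FPKM in BP1, BP2 and BP3, where it ranked 5th in each liver. All BP livers were far above all PL livers, with a difference of 11.92 (SE 0.40, adjusted p = 3.59e-06). The second, ENSGALT00000046070, was 0.187, 1.34 and 55.8 FPKM at PL and 1371, 1879 and 1396 FPKM at BP (8.15, SE 1.21, adjusted p = 0.00413), and PL3 held far more of it than PL1 and PL2.

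The steepest fall was as sharp. ENSGALT00000063504 was 3089, 3341 and 2035 FPKM in the 3 PL livers, within the top 25 mRNAs of each, and 0.111, 0.111 and 0.102 FPKM in the BP livers (-11.28, SE 0.22, adjusted p = 2.2e-07). ENSGALT00000068539 was 12846, 11005 and 2146 FPKM at PL and 0.524, 564 and 12.2 FPKM at BP (-8.22, SE 1.84, adjusted p = 0.0194). Here the broody livers differed widely from each other, BP2 lay closest to the laying livers, and adjusted p rose to between 0.0629 and 0.0661 when PL1, PL2 or BP3 was left out.

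These 4 mRNAs followed different courses over the whole series. ENSGALT00000042470 was 1.62 to 4.65 FPKM in the juvenile livers and 35692 to 40539 FPKM in the SM livers, and ENSGALT00000063504 was 1854 to 2196 FPKM at JP and 0.0952 to 0.116 FPKM at SM. Both were thus at the same side in PL and JP and at the other side in BP and SM, along the division of the libraries. ENSGALT00000068539 was between 0.292 and 0.699 FPKM in every JP and SM liver, so that all 3 PL livers were above all other livers. ENSGALT00000046070 was 78.5 to 214 FPKM at JP and 503 to 1952 FPKM at SM, higher in each of these livers than in any PL liver.

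**Figure D2:**
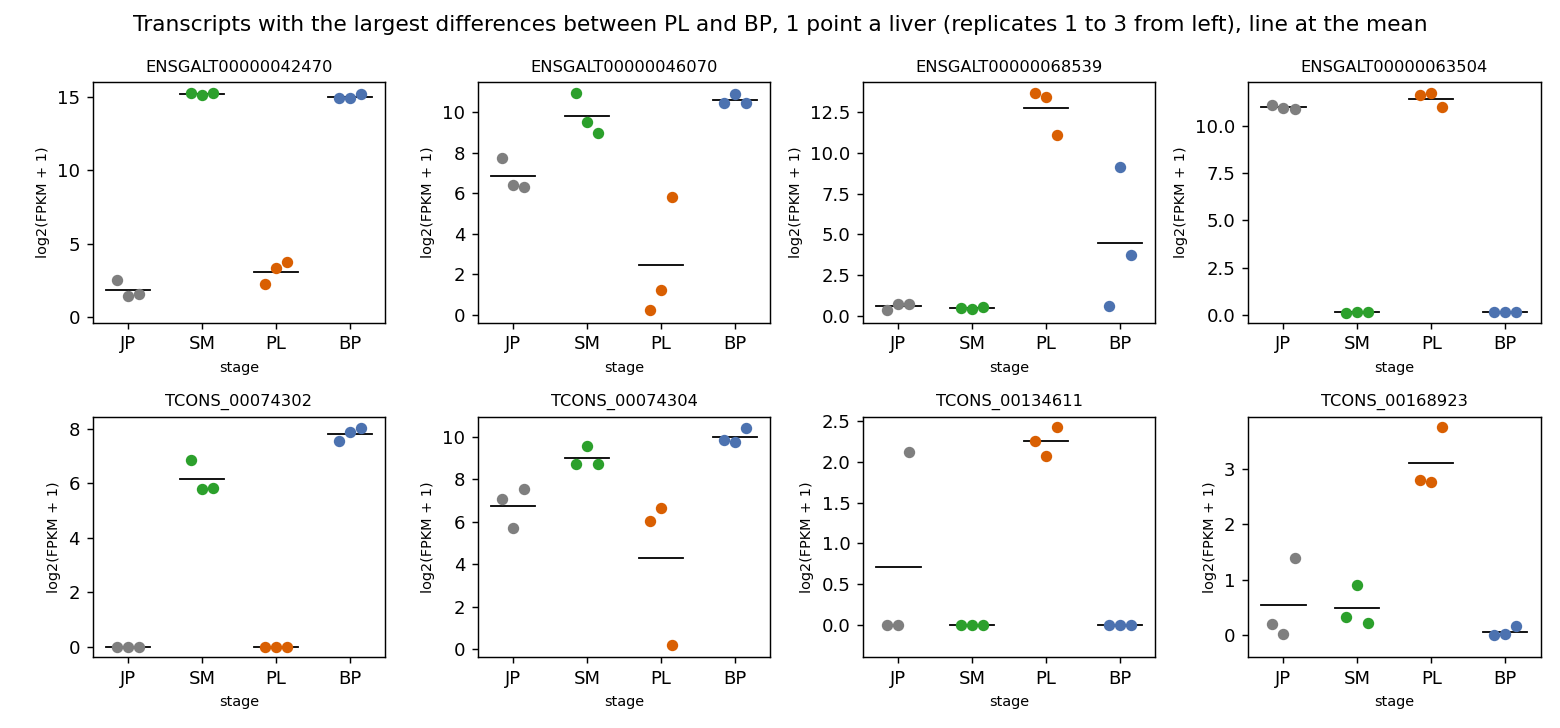
log2(FPKM + 1) in each of the 12 livers (points, replicates 1 to 3 from left, line at the mean of 3) of the mRNAs (top row) and lncRNAs (bottom row) with the largest called rises and falls. ENSGALT00000042470 and TCONS_00074302 are low at JP and PL and high at SM and BP, ENSGALT00000063504 is the reverse, and ENSGALT00000068539 and TCONS_00168923 are high at PL.

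The most abundant mRNAs carried most of the change in summed FPKM. The mean sum rose by 314320 FPKM from PL to BP, net of all falls. The 10 largest rises came to 311840 FPKM together, and the 10 largest falls, which offset part of them, came to -79513 FPKM. The largest single rise was from 1202, 1290 and 1655 FPKM in PL1 to PL3 to 102220, 118760 and 126860 FPKM in BP1 to BP3, and the next was from between 723 and 1468 FPKM to between 70024 and 84803 FPKM. Both mRNAs were called higher (adjusted p = 0.00241 and 0.00152), and both were also high in all SM livers (at least 66802 and 41332 FPKM) and low in all JP livers (at most 781 and 635 FPKM). The third largest rise was from between 11911 and 28366 FPKM at PL to between 65551 and 68416 FPKM at BP. Its livers did not overlap, but it was not called (adjusted p = 0.364, limma). This p-value rests on a spread moderated with a trend on abundance, and not on the spread of its own values alone. The 10 most abundant mRNAs of a liver held 43.4%, 39.6% and 33.4% of the sum in PL1, PL2 and PL3 and 49.9%, 53.9% and 54.0% in BP1, BP2 and BP3. Nevertheless, 70 mRNAs were in the top 100 of both stages. Of the top 100 at BP, 35 were called higher and 2 lower, and of the top 100 at PL, 11 were called higher and 11 lower, beside 15.5% called higher and 2.17% called lower of all mRNAs tested. Each top 100 was chosen by the mean of its own stage, which the calls also use, so nothing is read from these counts.

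mRNAs that were far higher in the laying livers than in the JP and SM livers form a small but heavy group. The group was defined after values had been seen, as mRNAs above 10 FPKM in every PL liver and at least 10 times as high there as in any JP or SM liver, and BP values were not used. It holds 11 mRNAs, ENSGALT00000068539 among them. Together they took 26.4%, 22.6% and 5.24% of the summed mRNA FPKM in PL1, PL2 and PL3 and 0.261%, 2.82% and 1.26% in BP1, BP2 and BP3. These shares are lowered at BP by its higher summed FPKM. In FPKM, the 11 came to 107630, 98536 and 25121 in PL1, PL2 and PL3 and to 1936, 21215 and 9759 in BP1, BP2 and BP3. All 11 had a lower mean at BP, between -0.48 and -8.22 with a median of -2.88. Of the 11, 4 were called lower and 7 were not called, beside 2.17% called lower among all mRNAs tested, and because the group was chosen for high PL values nothing is read from this share.

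Within this group the hens of a stage differed widely. PL3 was the lowest PL liver for 9 of the 11, BP2 was the highest BP liver for all 11, and BP2 exceeded PL3 for 4 of them. The most abundant member was 52440, 48929 and 10201 FPKM in PL1, PL2 and PL3 and 529, 12322 and 7422 FPKM in BP1, BP2 and BP3, which overlap (adjusted p = 0.153). It was not low in all earlier livers, with 208 FPKM in JP3 and 585 FPKM in SM2, against 12.3 to 36.4 FPKM in the others. For 9 of the 11 mRNAs every BP liver was above every JP and SM liver. The rule chose mRNAs with JP and SM values far below PL. The same count over all mRNAs tested was not taken, so nothing is read from it. The PL and BP livers did not overlap for 5 of the 11, all lower at BP, beside 6.79% of all mRNAs tested that were lower without overlap, and nothing is read from this count either.

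**Figure D3:**
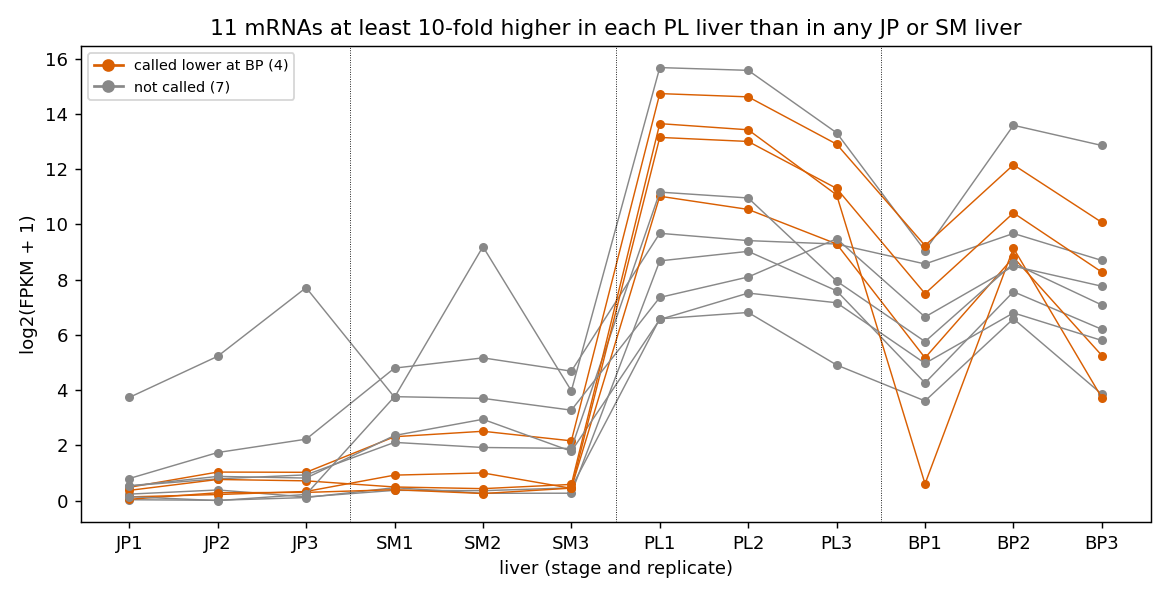
log2(FPKM + 1) in each of the 12 livers (x axis, by stage and replicate) of the 11 mRNAs that were at least 10-fold higher in every PL liver than in any JP or SM liver, with 1 line a transcript. The 4 called lower at BP are orange and the 7 not called are grey, PL3 lies below PL1 and PL2 for 9, and BP2 is the highest BP liver for all 11.

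PL3 stood apart from PL1 and PL2 beyond this group. Spearman's rho over the mRNAs tested was 0.972 between PL1 and PL2, but 0.946 and 0.953 between these livers and PL3, while BP livers had 0.963 to 0.971 with each other. The rho of lncRNAs was 0.677 between PL1 and PL2 and 0.551 and 0.581 with PL3. By lncRNAs, PL3 was nearer to the broody livers (0.451 to 0.469) than PL1 and PL2 were (0.370 to 0.382). By mRNAs these ranges overlapped, at 0.909 to 0.921 for PL3 and 0.896 to 0.911 for PL1 and PL2. The median FPKM of PL3 over the mRNAs tested was 3.57, against 2.35 and 2.76 in PL1 and PL2 and 3.62 to 4.09 in the BP livers. By the read numbers that the study lists, PL3 also had the fewest clean reads of the series. Whether depth bears on the position of PL3 was not tested.

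Each liver was therefore left out of the fit in turn and placed between the means of the remaining livers, as a description. Of mRNAs called higher at BP without PL1 or PL2, the omitted liver lay on the PL side of the midpoint for 98.8% and 96.2%. For PL3 it was 60.3% of 3727. Of mRNAs called lower, the omitted liver lay on the PL side for 74.6% of 220 without PL1, 88.7% of 141 without PL2 and 54.2% of 498 without PL3. The BP livers were on their own side for 84.9% to 93.2%. After median-ratio scaling PL3 was on the PL side for 80.5% of the rises but only 58.1% of the 1272 falls. The other livers were on their own side for 89.7% to 96.1% of the rises and 86.8% to 94.8% of the falls. The lncRNAs that fell without PL3 had PL3 on the BP side in the majority, since 19 of 76 were on the PL side.

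Leaving out PL3 raised the number of mRNAs called from 2758 to 4225 (3727 higher and 498 lower), although fewer livers were compared. Leaving out any other liver lowered it, to 1430 without PL1, 1278 without PL2, 1557 without BP1, 1720 without BP2 and 1286 without BP3. For lncRNAs the count was 355 without PL3, with 76 lower in place of 25, 272 without BP1 and 325 without BP2, but 73 without PL1, 71 without PL2 and 181 without BP3. 

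**Figure D4:**
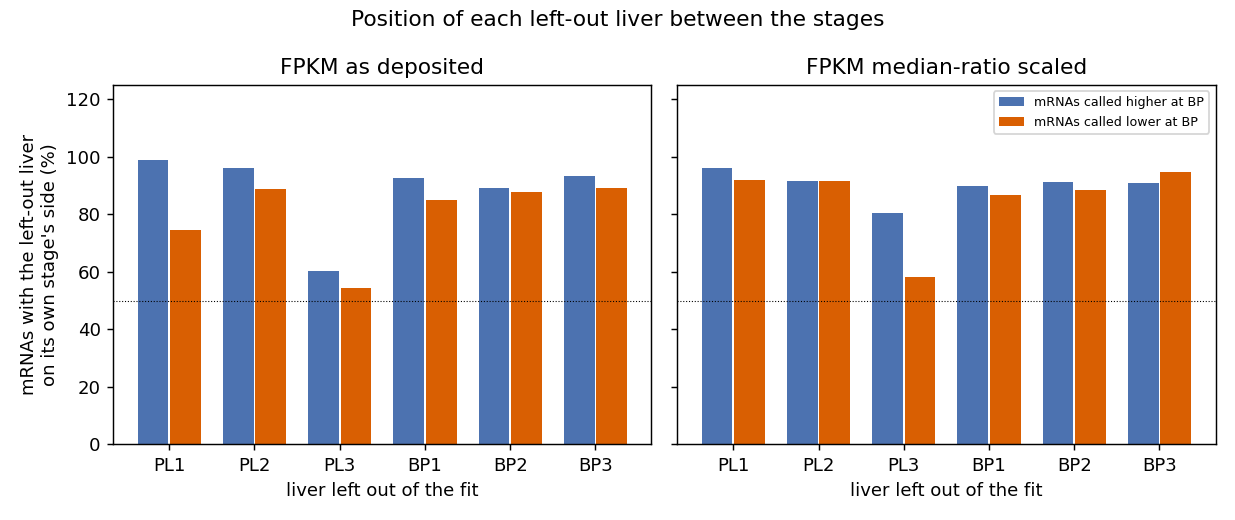
Percent of mRNAs for which a liver left out of the fit lay on its own stage's side of the midpoint between the means of the remaining PL and BP livers, for mRNAs called higher (blue) or lower (orange) at BP without it, with FPKM as deposited (left) and median-ratio scaled (right). The dotted line marks 50%, and PL3, at 60.3% and 54.2% as deposited, is below all other livers.

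Because JP and SM livers fall on the same sides of the library division as PL and BP livers, SM minus JP was compared with BP minus PL, 2 differences that share no liver. Of the 2420 mRNAs called higher at BP, 2175 (89.9%) had a higher mean at SM than at JP, against 71.7% of all mRNAs tested, and 1730 (71.5%, against 43.5%) did so without overlap of the JP and SM livers. Their median SM minus JP was 0.71. Of the 338 called lower, 221 (65.4%, against 28.2%) were lower at SM, with a median of -0.20. Of the 349 lncRNAs called higher, 328 (94.0%, against 77.1%) were higher at SM, and of the 25 called lower, 16 (64%, against 21.3%) were lower. Over all tested, Pearson's r between the differences was 0.53 across the 15602 mRNAs and 0.53 across the 4241 lncRNAs, which are not independent replicates and share their libraries.

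The JP and SM livers helped to place the calls. For 1509 of the 2420 mRNAs called higher at BP, all SM and BP livers were above all JP and PL livers, which held for 2442 of all 15602 mRNAs tested. All PL livers were below all other livers for 1069 (1755 of all tested), and all BP livers were above all others for 237 (371 of all tested). Of the 338 mRNAs called lower at BP, the PL livers were above all other livers for 172 (345 of all tested), the SM and BP livers were below all JP and PL livers for 93 (207 of all tested), and the BP livers were the lowest of all for 36 (128 of all tested). Calls between PL and BP already order these stages, so nothing is read from the differences to all mRNAs tested.

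The difference of these differences was tested in a fit of all 12 livers. It was called for 1217 mRNAs (7.8%), for 672 in the upward direction (4.31%) and for 545 in the downward direction (3.49%). Among the 2420 mRNAs called higher at BP, 391 rose more from PL to BP than from JP to SM, 20 rose less, and for 2009 no difference was called, which does not show that both changes were equal. The 391 had a median BP minus PL of 1.22 and a median SM minus JP of 0.003. Among the 338 called lower, 109 fell more between PL and BP, and these had medians of -1.26 and 0.30. ENSGALT00000068539 was called (-8.11, SE 2.14, adjusted p = 0.0379), whereas ENSGALT00000063504 was not (-0.46, SE 0.25, adjusted p = 0.261). For lncRNAs 25 were called (0.589%), 13 upward (0.307%) and 12 downward (0.283%), with 12 of them among the 349 rises and 9 among the 25 falls. The calls of this test and those between PL and BP share the PL and BP values. Nothing is therefore read from how they split among the rises and falls, or from the medians above.

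**Figure D5:**
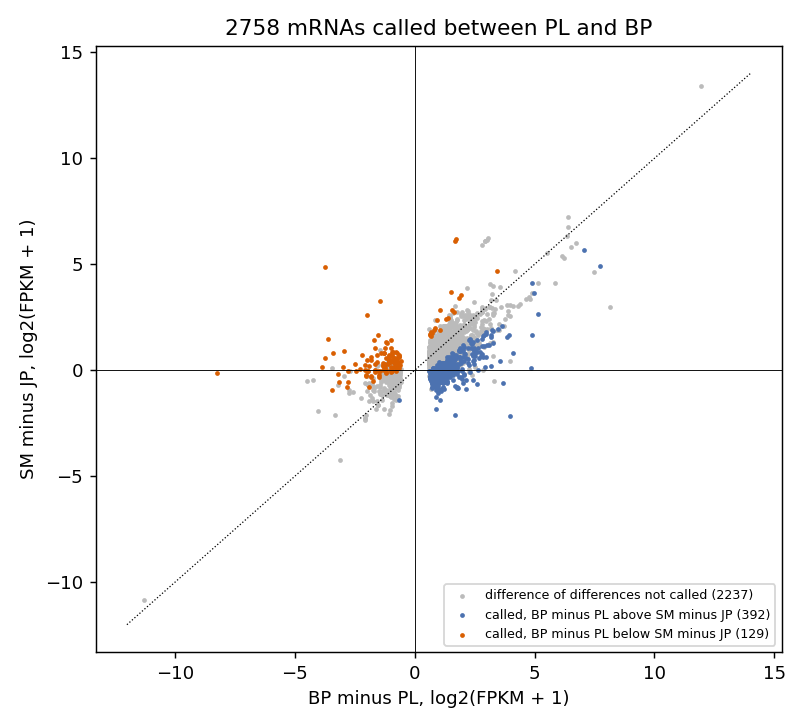
BP minus PL (x axis) and SM minus JP (y axis), both on the log2(FPKM + 1) scale, for the 2758 mRNAs called between PL and BP, with a dotted line of equal differences. The 392 blue and 129 orange points are the mRNAs whose BP minus PL was called above or below SM minus JP in the fit of 12 livers, and the grey points had no called difference.

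Among single lncRNAs, the largest rise was that of TCONS_00074302. It was listed at 0 in PL1, PL2 and PL3 and in all JP livers, and it was 188, 236 and 260 FPKM in BP1, BP2 and BP3, where it ranked 6th, 4th and 4th (adjusted p = 1.75e-05). At SM it was 53.6 to 115 FPKM. TCONS_00074304, close to it in number, was 64.5, 100 and 0.120 FPKM at PL and 926, 880 and 1376 FPKM at BP (5.73, SE 1.52, adjusted p = 0.0466). Its lowest value by far was that of PL3, and its adjusted p ranged from 0.00265 to 0.217 over 13 alternatives, under 0.05 in 3. In all, 165 of the 4241 lncRNAs tested were listed at 0 in every PL liver and above 0.1 FPKM in every BP liver, and 23 were the reverse. For the 15602 mRNAs tested these numbers were 111 and 14. Most were low where present, with median means of 0.356 and 0.590 FPKM for the lncRNAs and 0.496 and 0.752 FPKM for the mRNAs. Zeros were also more frequent at PL among all lncRNAs listed (9745 to 10278 a liver, against 8050 to 8922 at BP). Nothing is therefore read from these counts.

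The largest falls of lncRNAs were small in FPKM. TCONS_00168923 was 5.92, 5.77 and 12.4 FPKM in PL1, PL2 and PL3 and 0, 0.0140 and 0.127 FPKM in BP1, BP2 and BP3 (-3.03, SE 0.30, adjusted p = 0.00188). It was at most 1.63 FPKM in any JP or SM liver, and its fall exceeded the change from JP to SM (-2.98, SE 0.51, adjusted p = 0.0244). TCONS_00134611 was 3.78, 3.19 and 4.38 FPKM at PL and listed at 0 in all BP and all SM livers (adjusted p = 0.00079), and 1 JP liver held 3.33 FPKM. By the criteria used for mRNAs, but with 1 FPKM as the minimum at PL, 5 lncRNAs were low until sexual maturity and present in the laying livers, and PL3 was the lowest PL liver for all 5. Of these, 2 were called lower at BP, TCONS_00179344 (adjusted p = 0.0320) and TCONS_00038625 (adjusted p = 0.0279), beside 0.589% of all lncRNAs tested, and as for the mRNAs nothing is read from this share. The others, TCONS_00179352, TCONS_00179353 and TCONS_00179354, are neighbours of the former in number, and their positions were not analysed here.

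The lncRNAs that the study chose for quantitative PCR were also followed. None of these 5 was called between PL and BP. For 3 of the 5 a call was gained when a single hen was left out, and their primers are shown, forward and then reverse, 5′ to 3′, with the last 5 bases at the 3′ end, from which the polymerase extends, in capitals.
TCONS_00220501 forward: tcgtgaatggcagcaagaaGAGAC
TCONS_00220501 reverse: tcctgctccttcctgcACTCC
TCONS_00179354 forward: ctgatggaagtcaggcagCTCTC
TCONS_00179354 reverse: acaaggcaggtatcatgctGGAAG
TCONS_00083873 forward: aggatcagctccgtcTGGTG
TCONS_00083873 reverse: tgtgccaagaccaccCAGTA

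TCONS_00220501 was 20.5, 26.1 and 29.8 FPKM in PL1, PL2 and PL3 and 52.4, 0 and 0 FPKM in BP1, BP2 and BP3 (-2.80, SE 1.42, adjusted p = 0.206). The highest of the 6 values was thus that of a broody liver, and without BP1 the difference was -4.71 (adjusted p = 0.00306). TCONS_00179354 was 11.1, 9.95 and 2.44 FPKM at PL and 1.49, 1.56 and 1.21 FPKM at BP (-1.67, SE 0.47, adjusted p = 0.0539), without overlap. TCONS_00083873 was 7.96, 6.10 and 1.33 FPKM at PL and 0.312, 1.56 and 0.692 FPKM at BP (-1.57, SE 0.51, adjusted p = 0.0774). PL3 was the lowest PL liver in both, and without it the differences were -2.25 (adjusted p = 0.0049) and -2.16 (adjusted p = 0.0194). Over 13 alternatives, adjusted p was under 0.05 for TCONS_00179354 in 4 (0.0049 to 0.258), including 3 that kept all hens, and for TCONS_00083873 in 2 (0.0194 to 0.335), including the fit of all 12 livers (0.0226). TCONS_00220501 was under 0.05 in 1 of 13, that without BP1 (0.00306 to 0.52).

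The remaining pair differed less. TCONS_00155619 was 3.61, 2.72 and 6.03 FPKM at PL and 1.67, 3.33 and 2.45 FPKM at BP, which overlap (-0.53, SE 0.32, adjusted p = 0.274). TCONS_00037924 was 1.05, 5.88 and 5.25 FPKM at PL and 10.7, 9.19 and 11.9 FPKM at BP (1.37, SE 0.47, adjusted p = 0.0882), where it was higher in all 3 BP livers. In the juvenile livers it was 25.3 to 76.5 FPKM and at SM 6.45 to 7.21 FPKM, and the difference of differences was called (3.71, SE 0.68, adjusted p = 0.0344).

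The study grouped lncRNAs into time profiles and co-expression modules on these same livers, so that the counts in them are no independent evidence of direction. Beside them, 8.23% of all lncRNAs tested were called higher and 0.589% lower. Profile 28 had 92 of 127 tested members called higher at BP and 0 lower, with a median of 1.23 against 0.17 for all lncRNAs tested, and it holds both TCONS_00074302 and TCONS_00074304. Profiles 42 and 48 had 144 of 500 and 30 of 98 called higher, with medians of 0.58 and 0.70 and 0 called lower. Profile 29 had 13 of 54 called lower and 0 higher, with a median of -1.15, and TCONS_00168923, TCONS_00134611 and TCONS_00083873 belong to it. Profile 39, which holds TCONS_00179354 and TCONS_00155619, had 2 of 39 called lower (median -0.42). Profiles 41, 46 and 38 had 0 called of 45, 42 and 53, with medians of 0.32, 0.17 and 0.085, and the last was -0.11 after median-ratio scaling.

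Of the modules, to be read beside the same 8.23% and 0.589%, the first had 49 of 154 tested members called higher and 4 lower (median 0.40), and the third had 1 of 11 called, which was lower (median 0.21). The second had 0 called higher and 11 of 78 called lower, with a median of -0.62. The mean of its members on the log2(FPKM + 1) scale was 1.36, 1.24 and 0.54 in PL1, PL2 and PL3 and 0.21, 0.33 and 0.30 in BP1, BP2 and BP3. PL3 lay between the other laying livers and the broody livers, and without it the median of the second module was -0.79.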

How the data were processed

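Liver RNA of 12 hens was sequenced by the authors in paired-end libraries. They discarded reads that were ribosomal, of poor quality or adaptor, aligned the remainder to Gallus gallus-5.0 by HISAT2 2.1.0, assembled transcripts with StringTie 1.3.3 and deposited its FPKM values, 1 table for mRNAs and 1 for lncRNAs, with no pooling. All value columns matched a liver by name (0 were left out). The depth of a library is not in these tables but is listed by the study. The FPKM values are given without read counts, an estimate of counting error, an interval or a detection limit. Primers are those listed by the study.

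Here log2(FPKM + 1) of the 6 PL and BP livers was fitted with limma 3.58.1 (R 4.3.3, linear model, empirical Bayes with a trend) for mRNAs and lncRNAs apart, with Benjamini-Hochberg adjustment over all transcripts tested. The study tested read counts, whereas FPKM values were tested here on a log scale. The difference of differences came from a fit of all 12 livers on the same transcripts. The limma p-values set a difference between stages against the spread between the 3 hens of a stage. This spread was moderated over all transcripts of the kind and pooled over the stages in the fit. All else was done in Python 3.11.15 (pandas 2.3.3, numpy 2.4.6, matplotlib 3.10.9 for plots, scipy 1.17.1 for exact tests). Named transcripts were the 2 largest rises and the 2 largest falls of each kind among called transcripts without overlap, plus the 5 lncRNAs of the study's quantitative PCR. TCONS_00179344, TCONS_00179352, TCONS_00179353, TCONS_00038625 and the abundant mRNAs given without identifiers were chosen after their values were seen.

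The comparison, the lists and the tests were chosen with earlier results of these data known. Median-ratio factors used mRNAs above 1 FPKM in all 6 livers. Alternatives were an added value of 0.1, a stricter filter (3 or more livers above 1 FPKM), no filter, median-ratio scaling, no trend, the replicate number as a block, 1 fit of all 12 livers and fits without each liver. The fits were tested on simulated data with 200 changed transcripts of a mean above 1. For BP minus PL, limma recovered 27% of 2-fold and 86% of 4-fold changes among 15602 mRNAs, with 8 false calls among 121, and 19% and 72% among 4241 lncRNAs, with 1 false call among 92. In the simulation all changes were rises, noise was independent between transcripts, and no liver or library set was shifted as a whole. These rates therefore need not hold for the real livers.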

Additional observations from a re-analysis of the deposited data

How the results depend on the processing

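No transcript was called in opposite directions between PL and BP under any alternative listed above, and the counts of calls moved as follows. The number of mRNAs called lower at BP, 338, was 928 with median-ratio scaling and 550 in 1 fit of all 12 livers. Over the fits without 1 liver, 1278 to 4225 mRNAs were called (1137 to 3727 higher and 120 to 498 lower) and 71 to 355 lncRNAs (57 to 308 higher and 11 to 76 lower). The lncRNA calls were 797 with an added value of 0.1 (716 higher and 81 lower), 74 with no filter (67 and 7), 234 with median-ratio scaling (210 higher), and the lower calls were 16 with the filter of FPKM above 1 and 62 in the fit of all 12 livers. When PL3 was left out together with median-ratio scaling, an alternative chosen after seeing the data, 1272 mRNAs were lower at BP and 220 lncRNAs were called (132 higher and 88 lower). For this added alternative the directions of single transcripts were not compared. The replicate numbers do not pair hens, since each liver came from a different hen. Deviations of same-numbered PL and BP livers from their stage means correlated at 0.055, -0.11 and 0.011 for mRNAs. For lncRNAs these values were -0.020, 0.042 and -0.055. With the replicate block, 2325 mRNAs and 83 lncRNAs were called (77 higher and 6 lower), and the difference of differences was called upward for 8 lncRNAs. The mRNAs whose differences differed numbered 2135 with median-ratio scaling, of which 1177 were in the downward direction, and 603 to 2265 without 1 liver (329 to 1506 upward and 274 to 798 downward). For lncRNAs they were 61 with an added value of 0.1 (30 upward and 31 downward), 15 with no filter (6 upward), 22 upward without the trend, and 11 to 99 without 1 liver (5 to 21 upward and 6 to 78 downward). The difference in summed FPKM between the stages was 178680 for mRNAs and 3182 for lncRNAs after median-ratio scaling, against 314320 and 4484. The median of profile 38 turned from 0.085 to -0.11 with median-ratio scaling. With no filter more transcripts were tested and with 1 liver fewer the fits held fewer livers, while the cause of the other shifts was not tested. At a mean under 0.25 on the log2(FPKM + 1) scale no transcript could reach the 1.5-fold threshold, so changes of the lowest transcripts were not detectable here.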
